A study of Mus musculus with 15 samples.

Results

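The RNA polymerase I transcription machinery was followed across 5 groups of E14 mouse embryonic stem cells as 10 genes, chosen by name from the gene identifiers of the deposited tables. The 10 genes were Polr1a, Polr1b, Polr1c, Polr1d and Polr1e, which encode subunits of the polymerase, and Rrn3, Taf1b, Taf1c, Ubtf and Tcof1, which encode factors that work with it. They were 10 of the 23845 genes listed, and all 10 were among the 14335 genes that passed the filter on low counts. Cells had received small interfering RNA against Ddx10 (Ddx10KD), Ddx24 (Ddx24KD), Ddx27 (Ddx27KD) or Ddx54 (Ddx54KD), each a DEAD-box RNA helicase, or against EGFP (EGFPKD), the control, with 3 biological replicates per group. All groups, the control included, were transfected alike: cells on 0.2% gelatin received 400 ng of RNA with 4 µL of Lipofectamine for 16 h, were given fresh medium and were collected at 48 h. The knockdowns were transient, with no clonal lines. By its title the series concerns proteins found at R-loops (RNA paired with DNA) in these cells.

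RNA polymerase I transcribes the repeated genes for the precursor of the large ribosomal RNAs in the nucleolus. The upstream binding factor Ubtf coats these genes, the selectivity factor (Taf1b and Taf1c with the TATA-binding protein and other subunits) binds their promoter, and Rrn3 bridges the polymerase to that promoter complex. Fast-dividing cells such as embryonic stem cells make ribosomes at a high rate. Libraries were made from poly(A) RNA, so the values below are levels of the messages that encode this machinery, and the ribosomal RNA precursor itself was not measured.

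Each library held 26836946 to 27708782 expected counts, the estimated reads per gene, and a machinery gene held 727 to 14109 of them. The targeted gene fell to 18.5% ± 4.25 of its EGFPKD level in Ddx10KD, 30.8% ± 4.89 in Ddx24KD, 22.7% ± 0.818 in Ddx27KD and 28.0% ± 4.68 in Ddx54KD (SD, n = 3 each). Along the first principal component, with 42% of the variance, the 12 knockdown libraries lay at -2.67 to 20.1 and the 3 EGFPKD libraries at -45.2 to -39.7. On the second component replicate 2 was the lowest library of every group, at -19.7 in Ddx24KD, -17 in Ddx54KD, -10.4 in Ddx27KD, -9.16 in Ddx10KD and -9.2 in EGFPKD. Calls of machinery genes that change without replicate 2 of Ddx24KD, the lowest of all, are given beside them. The 7 stem cell markers (Pou5f1, Nanog, Sox2, Zfp42, Esrrb, Dppa5a and Utf1) summed to 6900 to 7350 TPM in the 15 libraries, where TPM are transcript abundances scaled for length and depth. Within that sum Zfp42 fell in all 4 knockdowns (log2 changes of -0.40 to -0.30), Nanog fell in Ddx10KD, Ddx24KD and Ddx27KD (-0.47, -0.32 and -0.43), Sox2 rose in Ddx24KD, Ddx27KD and Ddx54KD (0.24, 0.26 and 0.23), and Pou5f1, named after its values were seen, fell in Ddx27KD and Ddx54KD (-0.18 and -0.16). The 7 fibroblast markers were chosen to show feeder cells. They summed to 10.6 to 16.8 TPM in the knockdown libraries and 17.5 to 25.6 TPM in the EGFPKD libraries. Of the 7, 1 was at 0 in all 15 libraries and only 2 passed the filter on low counts. The 2 were Thy1, with a mean of 14.4 TPM and most of the sum, and Col1a1, with 0.786 TPM. These marker differences moved with the comparisons with EGFPKD below, and their part in them was not tested. In bulk RNA, fewer cells of a type and less RNA per cell cannot be told apart.

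The promoters of 3 machinery genes that moved are shown: Rrn3 was higher in the knockdowns, while Polr1b and Polr1c were lower. Of the other genes called in any knockdown, the Tcof1 promoter was not used here, and that of Polr1a, called in 1 knockdown, held none of the letters searched. Each is the RefSeq window on GRCm38.p6 of 250 bases before to 50 bases after the gene's start, read 5′ to 3′ on the gene's own strand. Capitals mark the letters CACGTG, the E-box that Myc family proteins can bind, and GGGCGG or its reverse complement CCGCCC, the GC box. The windows are chr16:13780449-13780748 (plus strand) for Rrn3, chr2:129100746-129101045 (plus strand) for Polr1b and chr17:46247996-46248295 (minus strand) for Polr1c.
Rrn3: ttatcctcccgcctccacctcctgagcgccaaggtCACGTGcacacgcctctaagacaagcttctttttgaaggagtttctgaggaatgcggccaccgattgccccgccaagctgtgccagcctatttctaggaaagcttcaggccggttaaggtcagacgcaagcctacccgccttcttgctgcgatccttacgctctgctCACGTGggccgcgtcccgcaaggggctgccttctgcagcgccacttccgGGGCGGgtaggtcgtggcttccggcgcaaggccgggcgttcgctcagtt
Polr1b: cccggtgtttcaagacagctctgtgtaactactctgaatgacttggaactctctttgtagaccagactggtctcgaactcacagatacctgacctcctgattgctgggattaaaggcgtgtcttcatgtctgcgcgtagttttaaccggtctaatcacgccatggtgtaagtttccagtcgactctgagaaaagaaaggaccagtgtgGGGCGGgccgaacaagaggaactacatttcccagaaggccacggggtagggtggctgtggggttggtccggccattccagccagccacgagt
Polr1c: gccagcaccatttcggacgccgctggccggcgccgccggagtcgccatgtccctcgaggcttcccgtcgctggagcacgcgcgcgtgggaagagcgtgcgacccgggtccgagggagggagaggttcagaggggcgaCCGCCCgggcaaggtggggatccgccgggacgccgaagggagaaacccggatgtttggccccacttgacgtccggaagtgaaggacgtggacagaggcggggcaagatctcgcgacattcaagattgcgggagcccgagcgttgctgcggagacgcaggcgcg

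The Rrn3 window held CACGTG at 215 and at 48 bases before the start, while the Polr1b and Polr1c windows held none. Across the 15 windows of the 9 machinery genes in the table, only the Rrn3 window held CACGTG, against 7.2% of all 32851 windows. GGGCGG, searched on both strands, was present in 10 of these 15 windows, of which 5 belong to Ubtf, in 6 of the 9 genes, and in 35.7% of all windows. In the windows shown it stood just after the start in Rrn3, 42 bases before the start in Polr1b, and 113 bases before it in Polr1c as CCGCCC. The TATA box, TATAAA, was in 0 of the 15 windows and in 13.6% of all windows. These matches describe the letters of each window and do not show binding.

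Measured per transcript length, the machinery genes spanned a wide range of levels. Over the 15 libraries Polr1d was highest, with 273 ± 8.75 TPM (SD, range 258 to 286), above 96.2% of the tested genes. Rrn3 followed with 216 ± 17.9 TPM and Tcof1 with 196 ± 15.4 TPM. Polr1c had 152 ± 12.1 TPM, Ubtf 137 ± 5.44 TPM, Polr1b 86.8 ± 7.15 TPM and Polr1a 53.5 ± 3.39 TPM. At the low end Taf1b had 30.8 ± 1.61 TPM, Polr1e 25.7 ± 0.985 TPM and Taf1c 22.9 ± 0.973 TPM, the last above 60.5% of the tested genes. The neighbours Rrn3 and Tcof1, and Polr1c and Ubtf, overlapped in their ranges over the libraries. The order within each of these pairs differed between libraries. Polr1e and Taf1c also overlapped in their ranges, yet Polr1e was above Taf1c within every library. The polymerase's 2 largest subunits, Polr1a and Polr1b, were therefore at an intermediate level, and the selectivity factor subunits among the lowest.

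Against EGFPKD, Rrn3 was the machinery gene that rose in every knockdown, Tcof1 and Polr1b fell in every knockdown, Polr1c fell in 3 of 4, and Polr1a rose in Ddx27KD. Polr1d, Polr1e, Taf1b, Taf1c and Ubtf did not pass the test in any knockdown. All changes were small, between -0.37 and 0.25 on the log2 scale. A gene was called at an adjusted p under 0.05 in the edgeR quasi-likelihood test, with Benjamini-Hochberg adjustment over all tested genes. In Ddx10KD 1 machinery gene was called higher and 3 lower, against 31.0% of all tested genes called in either direction. In Ddx24KD 1 was higher and 3 lower, against 28.1% of all genes. In Ddx27KD 2 were higher and 3 lower, against 33.4%. In Ddx54KD 1 was higher and 2 lower, against 24.3%. By direction, the genes called higher were 16.5% of all tested genes in Ddx10KD, 2154 of 14335 in Ddx24KD, 17.3% in Ddx27KD and 13.1% in Ddx54KD, and those called lower were 14.5%, 13.1%, 16.1% and 11.2%. With the replicate number as a block, described below, 44.0%, 41.2%, 45.8% and 38.9% of all genes were called in the same order. With 10 genes these shares stand near the background, and their number is no result about the machinery. The median log2 difference of the 10 genes was -0.01 in Ddx10KD, -0.08 in Ddx24KD, -0.05 in Ddx27KD and -0.03 in Ddx54KD, where all tested genes had medians between 0.003 and 0.008. The median absolute log2 difference of the 10 genes was 0.08, 0.12, 0.13 and 0.09 in the same order, below the 0.19, 0.18, 0.20 and 0.17 of all tested genes. The 10 genes stood above 60.5% to 96.2% of the tested genes in TPM, and no genes matched for level were compared. The lower medians are therefore no result about the machinery. The 4 comparisons share their 3 EGFPKD libraries, so they are not independent of each other.

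**Figure D1:**
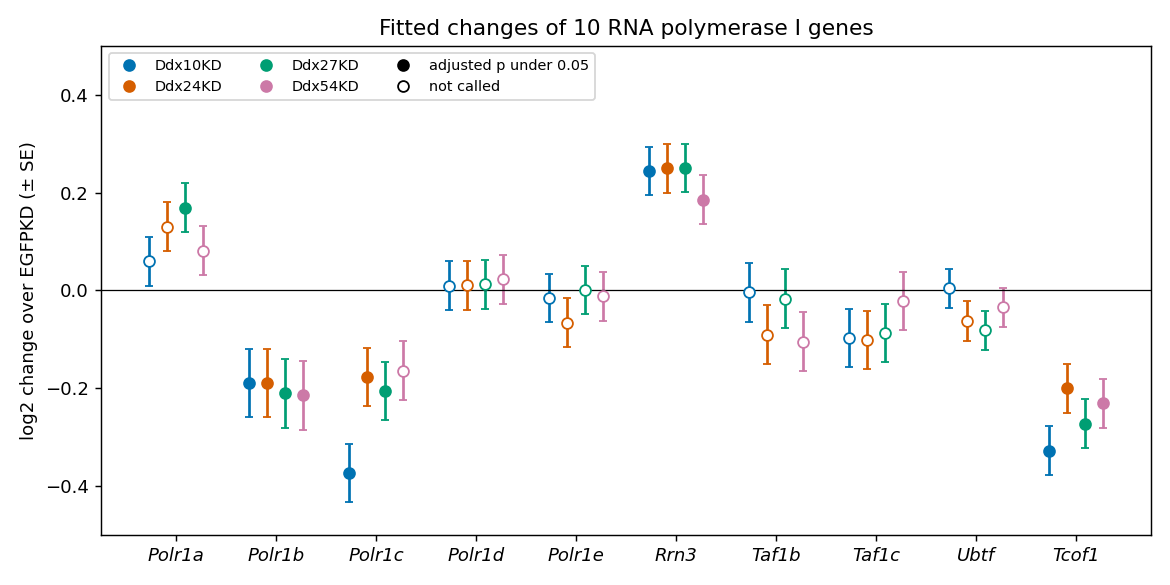
Fitted log2 change over EGFPKD (vertical axis, ± SE) of each of the 10 genes (horizontal axis), with 1 point per knockdown in the order Ddx10KD, Ddx24KD, Ddx27KD and Ddx54KD. Filled points have an adjusted p under 0.05 in edgeR. Rrn3 lies above 0 in all 4 knockdowns, Polr1b and Tcof1 lie below it in all 4, and Polr1d and Polr1e lie close to 0.

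Rrn3, the initiation factor that makes the polymerase competent to start and a target of growth signalling, had 388.1, 404.1 and 390.1 CPM in Ddx10KD, 404.4, 379.1 and 403.5 CPM in Ddx24KD, 407.0, 391.2 and 388.9 CPM in Ddx27KD, and 392.8, 370.3 and 371.7 CPM in Ddx54KD, against 353.5, 320.4 and 324.2 CPM in EGFPKD. CPM here are counts scaled to library size by TMM, listed for replicates 1, 2 and 3. All 12 knockdown libraries lay above all 3 EGFPKD libraries, with no overlap. Such a complete separation upward was seen in 12.2% of all tested genes, and in either direction in 23.4%, where 4 of the 10 machinery genes showed it. The fitted log2 change was 0.24 ± 0.05 in Ddx10KD (SE, edgeR adjusted p = 0.00113), 0.25 ± 0.05 in Ddx24KD (adjusted p = 0.0011), 0.25 ± 0.05 in Ddx27KD (adjusted p = 0.000808) and 0.19 ± 0.05 in Ddx54KD (adjusted p = 0.0101). As levels, Rrn3 stood at 118% ± 2.62, 119% ± 4.31, 119% ± 2.96 and 114% ± 3.78 of EGFPKD in the same 4 knockdowns (SD, n = 3). Rrn3 was called higher in all 4 knockdowns, as were 9.32% of all tested genes. The Ddx54KD call was lost without EGFPKD replicate 2, the control library with the lowest Rrn3, where the change was 0.15 (edgeR adjusted p = 0.0628). Without replicate 2 of Ddx24KD, the Rrn3 change in Ddx24KD was 0.28 (edgeR adjusted p = 0.000721).

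**Figure D2:**
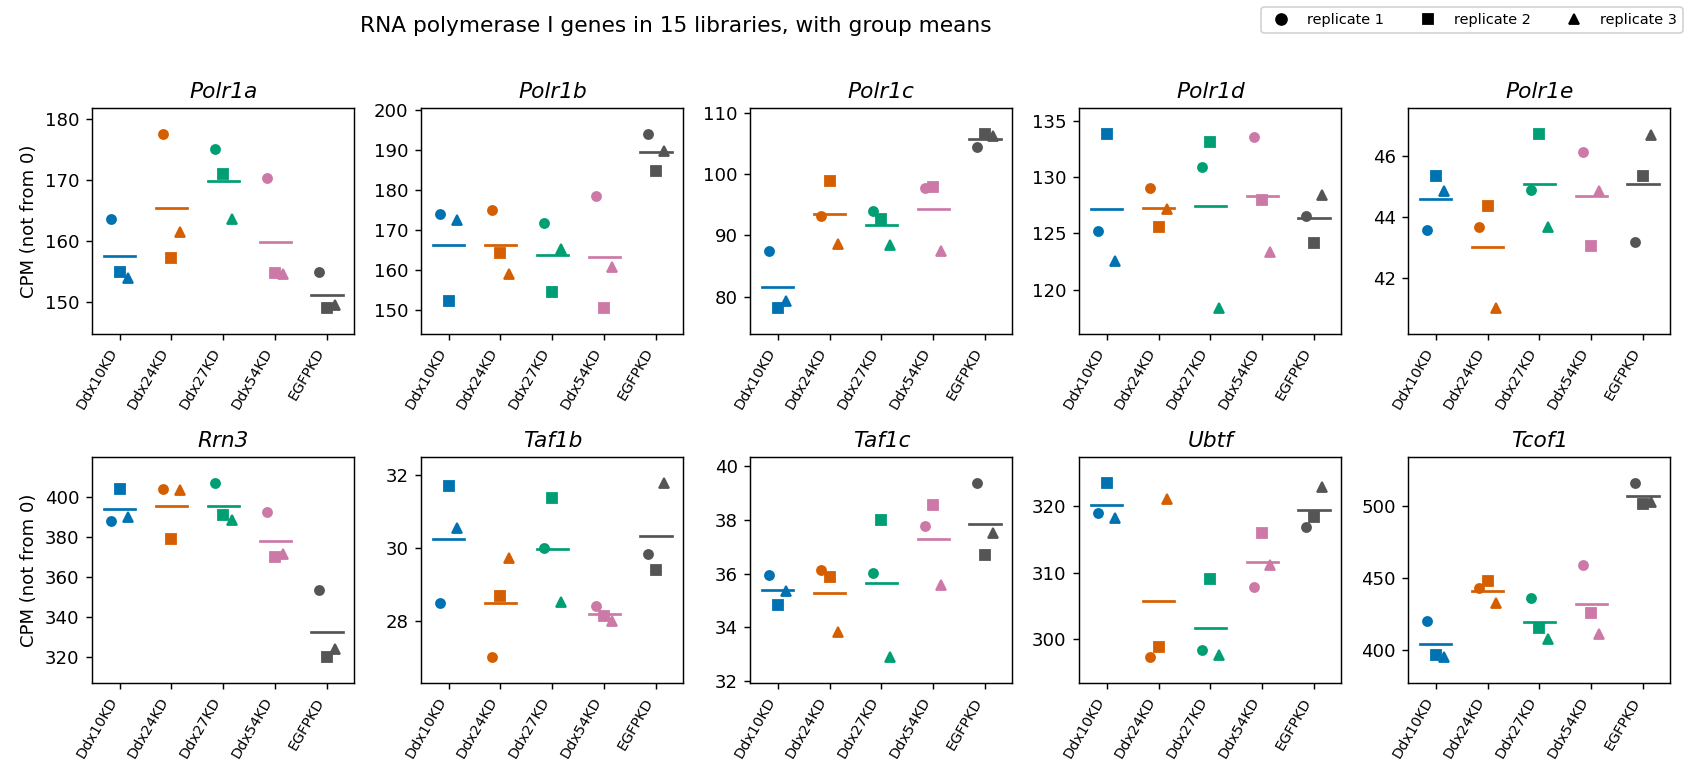
TMM-scaled CPM (vertical axes, which do not start at 0) of the 10 genes in the 15 libraries, by group (horizontal axes, EGFPKD at the right). Symbols mark replicates and bars are group means over 3 libraries. The 12 knockdown libraries lie above the 3 EGFPKD libraries for Rrn3 and below them for Polr1b, Polr1c and Tcof1.

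Tcof1, which encodes treacle, a nucleolar phosphoprotein that binds Ubtf and the polymerase and is mutated in human Treacher Collins syndrome, had the smallest p of the 10 genes in the test over the groups and fell in all 4 knockdowns. It had 419.8, 396.1 and 395.0 CPM in Ddx10KD, 443.0, 447.9 and 432.3 CPM in Ddx24KD, 435.8, 414.8 and 407.0 CPM in Ddx27KD, and 458.9, 425.6 and 410.5 CPM in Ddx54KD, against 515.7, 501.5 and 502.8 CPM in EGFPKD. All 12 knockdown libraries lay below the 3 EGFPKD libraries, and the Ddx10KD libraries were the lowest as a group. The log2 change was -0.33 ± 0.05 in Ddx10KD (SE, edgeR adjusted p = 8.66e-05), -0.20 ± 0.05 in Ddx24KD (adjusted p = 0.00501), -0.27 ± 0.05 in Ddx27KD (adjusted p = 0.000363) and -0.23 ± 0.05 in Ddx54KD (adjusted p = 0.00225). Its levels were 79.7% ± 2.76, 87.0% ± 1.58, 82.7% ± 2.94 and 85.2% ± 4.89 of EGFPKD in these knockdowns (SD, n = 3). Tcof1 was called lower in every knockdown at an adjusted p under 0.05 in every alternative fit that was tried.

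Ubtf, the high-mobility-group protein that Tcof1 binds, differed little. It ranged over 318.2 to 323.4 CPM in Ddx10KD, 297.4 to 321.0 CPM in Ddx24KD, 297.7 to 309.0 CPM in Ddx27KD and 307.8 to 316.0 CPM in Ddx54KD, against 316.9 to 322.8 CPM in EGFPKD. The 3 libraries of Ddx27KD and of Ddx54KD lay below all 3 EGFPKD libraries. The largest log2 difference was -0.08 ± 0.04 in Ddx27KD, with a 95% interval of -0.16 to -0.00 (edgeR adjusted p = 0.134). In the other knockdowns the difference was between -0.06 and 0.00. The Ddx27KD interval stopped just short of 0 although the edgeR unadjusted p was 0.0597, so the 95% intervals given here are somewhat narrower than the test.

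The subunits of the catalytic core had fitted differences of opposite sign, and both were called in Ddx27KD. Polr1a is the largest subunit and holds, with Polr1b, the active site. Polr1a had 163.7, 155.0 and 153.9 CPM in Ddx10KD, 177.5, 157.2 and 161.5 CPM in Ddx24KD, 175.1, 171.0 and 163.6 CPM in Ddx27KD, and 170.3, 154.8 and 154.6 CPM in Ddx54KD, against 154.9, 149.1 and 149.5 CPM in EGFPKD. Of the 12 knockdown libraries 9 lay above all EGFPKD libraries, and only Ddx24KD and Ddx27KD had all 3 above them. A separation of 3 knockdown libraries from the 3 EGFPKD libraries, in either direction, was common, at 46.2% of all tested genes in Ddx10KD, 40.7% in Ddx24KD, 46.7% in Ddx27KD and 40.2% in Ddx54KD. The log2 change was 0.17 ± 0.05 in Ddx27KD (SE, edgeR adjusted p = 0.0253), and the differences in Ddx10KD, Ddx24KD and Ddx54KD were 0.06 ± 0.05 (adjusted p = 0.444), 0.13 ± 0.05 (adjusted p = 0.0887) and 0.08 ± 0.05 (adjusted p = 0.307). With the replicate number as a block the Ddx24KD difference passed (edgeR adjusted p = 0.00648), which gave 2 machinery genes called higher in Ddx24KD. It also passed without replicate 2 of Ddx24KD, at 0.17 (edgeR adjusted p = 0.0432). The Ddx27KD call was lost without Ddx27KD replicate 1 or 2 (0.14 and 0.16, edgeR adjusted p = 0.102 and 0.0768) and without EGFPKD replicate 2 or 3 (0.16 in both, adjusted p = 0.0884 and 0.075), and with the block it had an adjusted p of 0.000634.

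Polr1b, the second-largest subunit, went the other way. It had 174.0, 152.1 and 172.5 CPM in Ddx10KD, 175.1, 164.3 and 159.0 CPM in Ddx24KD, 171.7, 154.4 and 165.2 CPM in Ddx27KD, and 178.6, 150.5 and 160.8 CPM in Ddx54KD, against 194.0, 184.9 and 189.7 CPM in EGFPKD. All 12 knockdown libraries lay below the 3 EGFPKD libraries in CPM, and replicate 2 was the lowest library of Ddx10KD, Ddx27KD, Ddx54KD and EGFPKD. In TPM 2 of the Ddx10KD libraries, at 91.54 and 92.49, overlapped the lowest EGFPKD library, at 91.52. The log2 change was -0.19 ± 0.07 in Ddx10KD (SE, edgeR adjusted p = 0.041), -0.19 ± 0.07 in Ddx24KD (adjusted p = 0.0437), -0.21 ± 0.07 in Ddx27KD (adjusted p = 0.0229) and -0.22 ± 0.07 in Ddx54KD (adjusted p = 0.0279). These calls lay near the threshold in the fit without the block, and with it the adjusted p were 0.000959, 0.00112, 0.00035 and 0.000398 in that order. Without the block, and with fewer libraries, several calls were lost while the log2 difference stayed between -0.22 and -0.13. The Ddx10KD call was lost without Ddx10KD replicate 2 or 3 (edgeR adjusted p = 0.187 and 0.052) or any EGFPKD library (0.114, 0.0558 and 0.0878 without replicates 1, 2 and 3). The Ddx24KD call was lost without Ddx24KD replicate 2 or 3 (edgeR adjusted p = 0.0832 and 0.151) or any EGFPKD library (0.122, 0.0598 and 0.0945 without replicates 1, 2 and 3). In these fits the difference was -0.22 to -0.13 in Ddx10KD and -0.21 to -0.16 in Ddx24KD, so it stayed negative where the call was lost. The Ddx27KD call was lost without Ddx27KD replicate 2 (edgeR adjusted p = 0.1) and EGFPKD replicate 1 or 3 (0.0754 and 0.0554). The Ddx54KD call was lost without Ddx54KD replicate 2 or 3 (edgeR adjusted p = 0.126 and 0.089) and EGFPKD replicate 1 or 3 (0.0894 and 0.0665). The differences were -0.21 to -0.17 in these Ddx27KD fits and -0.21 to -0.16 in these Ddx54KD fits. Polr1b and Tcof1, called lower in all 4 knockdowns, were 2 of the 10 genes, beside 7.31% of all tested genes.

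Polr1c and Polr1d form the small heterodimer on which the enzyme is assembled, shared by RNA polymerases I and III, and mutations in either are a cause of Treacher Collins syndrome in humans. Polr1c had 87.38, 78.2 and 79.34 CPM in Ddx10KD, 93.17, 98.96 and 88.52 CPM in Ddx24KD, 94.0, 92.68 and 88.4 CPM in Ddx27KD, and 97.71, 97.89 and 87.49 CPM in Ddx54KD, against 104.5, 106.5 and 106.3 CPM in EGFPKD. All 12 knockdown libraries lay below the 3 EGFPKD libraries, and the 3 Ddx10KD libraries were lower than every library of the other knockdowns. Such a separation of all 12 libraries downward, which Polr1b, Polr1c and Tcof1 showed, was seen in 11.2% of all tested genes. The log2 change was -0.37 ± 0.06 in Ddx10KD (SE, edgeR adjusted p = 0.000187), the largest change of any machinery gene, -0.18 ± 0.06 in Ddx24KD (adjusted p = 0.0333) and -0.21 ± 0.06 in Ddx27KD (adjusted p = 0.0127). In Ddx54KD the difference was -0.16 ± 0.06 (edgeR adjusted p = 0.0515), which passed with the replicate number as a block (adjusted p = 0.00745), making 3 machinery genes lower in Ddx54KD. It also passed without replicate 2 of Ddx24KD, which feeds the shared estimate of the spread (edgeR adjusted p = 0.0361), and without Ddx54KD replicate 1 (adjusted p = 0.0488). The Ddx24KD call was lost without Ddx24KD replicate 1 or 3 (-0.18 and -0.14, edgeR adjusted p = 0.0758 and 0.142) and without any EGFPKD library (-0.19, -0.18 and -0.17, adjusted p = 0.0615, 0.0753 and 0.0818 without replicates 1, 2 and 3). With the block it had an adjusted p of 0.0042. The Ddx27KD call was lost without Ddx27KD replicate 3 (-0.18, edgeR adjusted p = 0.0512). The Ddx10KD fall passed in every alternative fit that was tried.

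Polr1d, its partner, had no detectable difference in level. It had 125.2, 133.8 and 122.5 CPM in Ddx10KD, 129.0, 125.6 and 127.2 CPM in Ddx24KD, 130.9, 133.1 and 118.4 CPM in Ddx27KD, and 133.6, 128.0 and 123.3 CPM in Ddx54KD, against 126.5, 124.1 and 128.4 CPM in EGFPKD. Every group overlapped EGFPKD, and the fitted log2 differences were 0.01, 0.01, 0.01 and 0.02, each with an SE of 0.05 (edgeR adjusted p = 0.801 to 0.913). The gene has several transcripts, and its abundance-weighted transcript length, a readout apart from its counts, was 1011, 1021 and 1011 bases in Ddx10KD, 1009, 1017 and 1010 in Ddx24KD, 1011, 1004 and 1007 in Ddx27KD, and 1011, 1010 and 1003 in Ddx54KD, against 999, 1006 and 999 bases in EGFPKD. The Polr1d lengths in Ddx10KD and Ddx24KD did not overlap those in EGFPKD, and those in Ddx27KD and Ddx54KD did. For Taf1b the Ddx10KD lengths, 1987.42 to 1991.43 bases, also lay apart from those in EGFPKD, 1991.48 to 1995.26 bases. The lengths of Polr1e, Ubtf and Tcof1 overlapped EGFPKD in every knockdown. Among the 3645 tested genes whose length varied by 1 base or more, the 3 and 3 lengths did not overlap in 14.0% in Ddx10KD, 13.1% in Ddx24KD, 14.2% in Ddx27KD and 13.4% in Ddx54KD. Beside these shares the few separations in length are no result particular to Polr1d or the machinery. With 3 libraries against 3 an exact permutation test cannot give a p below 0.1, no other test of the lengths was run, and no call was made. Polr1a, Polr1b, Polr1c, Rrn3 and Taf1c had the same length in every library, so no shift between transcripts could be seen for them.

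Polr1e, which pairs with a partner subunit on the polymerase and takes part in initiation and elongation, ranged over 41.05 to 46.69 CPM in the 12 knockdown libraries and 43.2 to 46.66 CPM in EGFPKD. Its log2 differences were -0.02 in Ddx10KD, -0.07 in Ddx24KD, 0.00 in Ddx27KD and -0.01 in Ddx54KD, and none passed (edgeR adjusted p = 0.388 to 0.998). Taf1b, the selectivity factor subunit that resembles the polymerase II factor TFIIB, ranged over 27.03 to 31.69 CPM in the knockdowns and 29.39 to 31.76 CPM in EGFPKD. The 3 Ddx54KD libraries, at 28.42, 28.15 and 28.01 CPM, lay below all EGFPKD libraries, yet the log2 difference there was -0.11 ± 0.06 and did not pass (edgeR adjusted p = 0.244). Taf1c, which contacts Rrn3 within the selectivity factor, ranged over 32.91 to 38.56 CPM in the knockdowns and 36.71 to 39.36 CPM in EGFPKD. All libraries of Ddx10KD and Ddx24KD lay below the EGFPKD libraries for Taf1c, with log2 differences of -0.10 in both (edgeR adjusted p = 0.249 and 0.238), not detectable at this replicate number. Taf1c shares 480 exon bases with Dnaaf1 on the opposite strand, and Polr1a shares 185 with the antisense gene Gm26628. Whether the counting used strand is not given in the sources used here, so reads from these partners cannot be told apart.

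In a single edgeR test over the 5 groups, 3 of the 10 genes passed, beside 29.0% of all tested genes. These were Tcof1 (adjusted p = 0.000584), Polr1c (0.0026) and Rrn3 (0.00295), while Polr1b had an adjusted p of 0.0718 and Polr1a of 0.143. With the replicate number as a block 5 passed, since Polr1b (edgeR adjusted p = 0.000821) and Polr1a (0.00493) joined them, beside 49.5% of all genes. Same-numbered libraries deviated together, so each knockdown library was also set against the EGFPKD library of its own number. Those log2 differences were positive in 12 of 12 pairs for Rrn3 (0.13 to 0.33) and for Polr1a (0.04 to 0.20). They were negative in 12 of 12 pairs for Tcof1 (-0.35 to -0.16), Polr1c (-0.45 to -0.10) and Polr1b (-0.30 to -0.12). All 12 differences had 1 sign in 36.8% of all tested genes, the 12 pairs share 3 EGFPKD libraries, and these 5 genes were picked for being called.

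**Figure D3:**
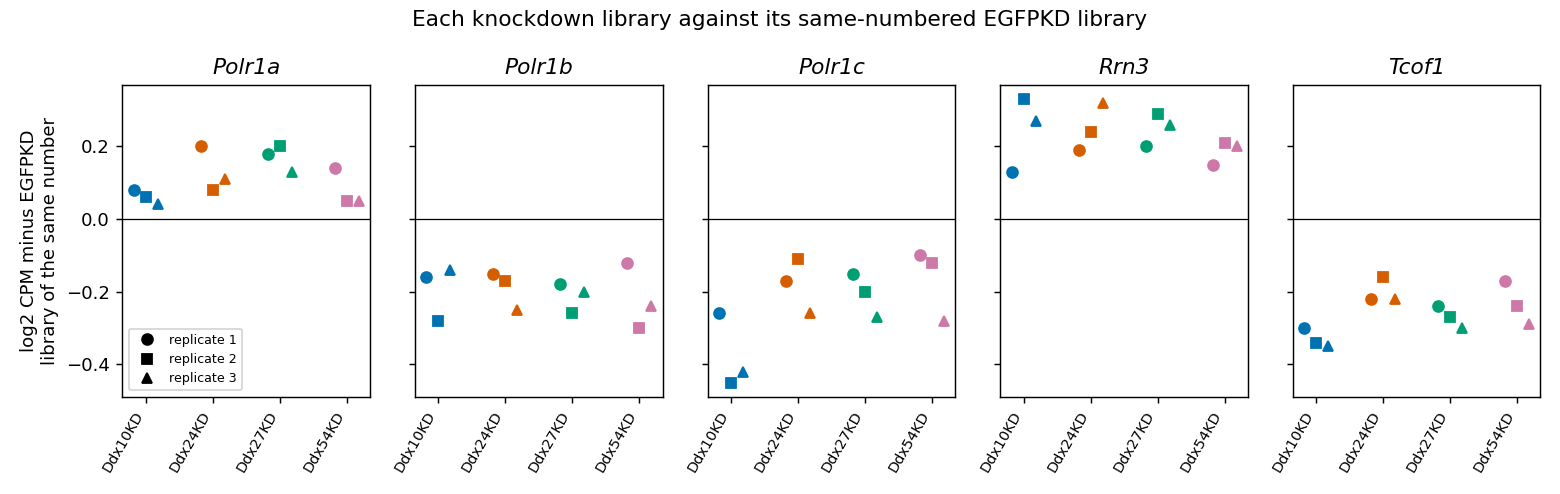
Log2 CPM of each knockdown library minus the EGFPKD library of the same replicate number (vertical axis) for the 5 genes called in any knockdown, by knockdown (horizontal axis), with symbols for replicates. All 12 differences are above 0 for Polr1a and Rrn3 and below 0 for Polr1b, Polr1c and Tcof1.

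Set as ratios of TPM within a library, which do not depend on how libraries were scaled, the genes changed unequally. The pairs were chosen after their values were seen, so the ratios are a description with no test. Rrn3 over Tcof1 was 1.18, 1.31 and 1.26 in Ddx10KD, 1.17, 1.08 and 1.2 in Ddx24KD, 1.2, 1.21 and 1.23 in Ddx27KD, and 1.1, 1.12 and 1.16 in Ddx54KD, against 0.878, 0.819 and 0.826 in EGFPKD. Thus Rrn3 was above Tcof1 per transcript length in all 12 knockdown libraries and below it in all 3 EGFPKD libraries. Polr1a over Polr1b was 0.58 to 0.72 in the knockdowns and 0.512 to 0.524 in EGFPKD. Polr1c over Polr1d, the partners of the shared heterodimer, was 0.45 to 0.604 in the knockdowns and 0.621 to 0.65 in EGFPKD, lowest in Ddx10KD at 0.532, 0.45 and 0.493. The ratio of the selectivity factor subunits, Taf1b over Taf1c, overlapped between the groups, at 1.21 to 1.51 in the knockdowns and 1.26 to 1.4 in EGFPKD. Rrn3 over Polr1a also overlapped, at 3.9 to 4.47 in the knockdowns and 3.68 to 3.91 in EGFPKD. The ratios that separated join genes already seen to differ in their changes, so their separation is no further result.

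**Figure D4:**
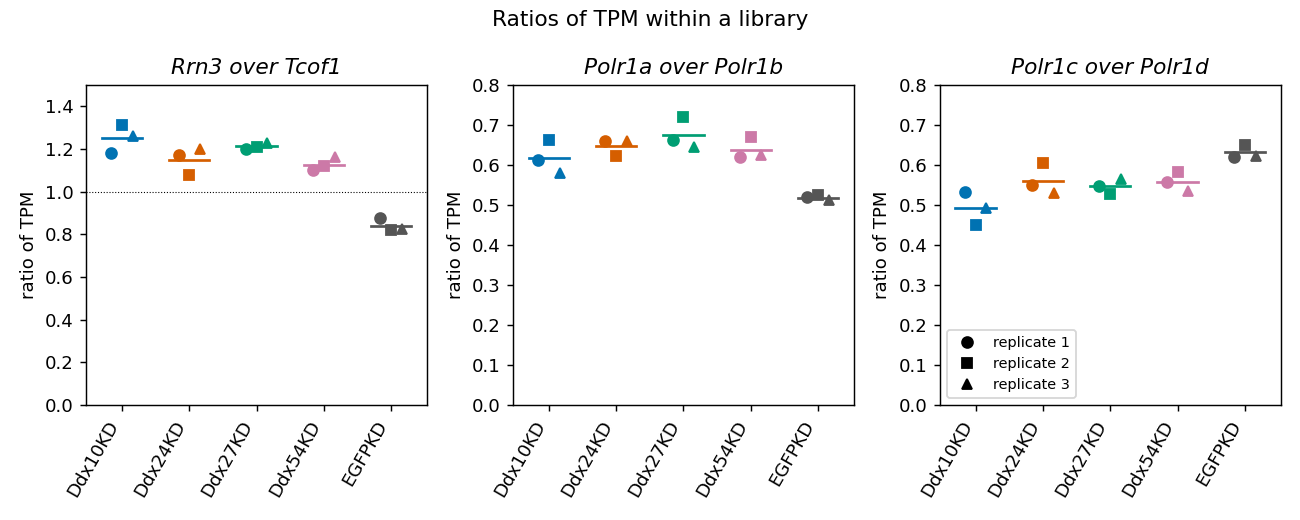
Ratios of TPM within each library (vertical axes, from 0) for 3 pairs of genes, by group (horizontal axes, EGFPKD at the right), with symbols for replicates and bars for group means. The EGFPKD libraries lie below all knockdown libraries for Rrn3 over Tcof1 and for Polr1a over Polr1b, and above them for Polr1c over Polr1d, and the dotted line marks a ratio of 1.

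Direct tests between the 4 knockdowns gave few calls in this machinery. In the 60 tests (6 pairs, 10 genes) edgeR without the block called 0, with 5 at an unadjusted p under 0.05, and DESeq2 called 1. Of these 5, 2 lay in Ddx24KD, 2 in Ddx27KD and 1 in Ddx54KD, each against Ddx10KD. Shares of all genes at that unadjusted p, or called by DESeq2, are not given here. Those that follow are edgeR calls without the block in the 6 pairs. The share of all genes called in these pairs was 0.412% for Ddx24KD against Ddx10KD, 0.223% for Ddx27KD against Ddx10KD, 1.43% for Ddx54KD against Ddx10KD, 0.0209% for Ddx27KD against Ddx24KD, 0.0558% for Ddx54KD against Ddx24KD and 0.0140% for Ddx54KD against Ddx27KD. The fitted log2 differences of the machinery genes ran from -0.10 to 0.21. Polr1c was higher in Ddx24KD than in Ddx10KD by 0.20 (95% interval 0.08 to 0.31, edgeR adjusted p = 0.194), in Ddx27KD than in Ddx10KD by 0.17 (0.05 to 0.28, adjusted p = 0.291) and in Ddx54KD than in Ddx10KD by 0.21 (0.09 to 0.32, adjusted p = 0.0938). With the replicate number as a block these 3 differences passed (edgeR adjusted p = 0.019, 0.0432 and 0.00744), as did Tcof1 in Ddx24KD against Ddx10KD, at 0.13 (adjusted p = 0.0271). Under that fit 5.41%, 5.34% and 10.6% of all genes were called in these 3 pairs, and 0.0558%, 1.74% and 2.62% in the other 3, which held no call of a machinery gene. For Rrn3 the intervals of all 6 pairs lay between -0.16 and 0.10. Each interval is for its own pair, with no allowance for looking at 6, and is somewhat narrower than the test. The intervals therefore set no joint bound, over the 6 pairs, on how far the Rrn3 response differed between knockdowns.

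The authors' deposited tables give their own ratios of each knockdown to the control, with posterior probabilities of a difference. For Rrn3 the authors' deposited tables list ratios of 1.18, 1.17, 1.19 and 1.13 in Ddx10KD, Ddx24KD, Ddx27KD and Ddx54KD, and the Ddx54KD probability, 0.917, is the lowest of the 4. For Tcof1 the ratios in the authors' deposited tables are 0.794, 0.86, 0.825 and 0.848 in the same order, all with a probability of 1. Polr1c has 0.769, 0.861, 0.865 and 0.888 in the authors' deposited tables, with probabilities of 0.963 or more. For Polr1b the authors' deposited tables have 0.874, 0.884, 0.862 and 0.858, and the probability passes 0.95 in Ddx24KD (0.956) and Ddx27KD (1) and not in Ddx10KD (0.935) or Ddx54KD (0.858). Polr1a passes 0.95 in Ddx27KD alone in the authors' deposited tables, with a ratio of 1.12. Ubtf has a ratio of 0.942 and a probability of 1 in the authors' deposited table of Ddx27KD, where the edgeR test made no call. The ratios in the authors' deposited table of Ddx24KD do not follow from the 6 deposited libraries of that comparison, since 79.3% of tested genes lay within 0.1 of the log2 ratio of the libraries, against 100% in the other 3 tables.

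Among other parts of the same apparatus, the 3 remaining subunits particular to RNA polymerase I (Znrd1, Twistnb and Cd3eap) had 1 call in the 4 comparisons. It was Twistnb at -0.24 in Ddx27KD (edgeR adjusted p = 0.0101), where 16.1% of all tested genes were called lower. With the replicate block Znrd1 also passed in Ddx10KD, at -0.20 (edgeR adjusted p = 0.00973), where 44.0% of all tested genes were called in either direction. Of the 5 subunits that all nuclear RNA polymerases share (Polr2e, Polr2f, Polr2h, Polr2k and Polr2l), 4 fell in Ddx10KD, 3 in Ddx24KD, 4 in Ddx27KD and 1 in Ddx54KD, and 0 rose, where 14.5%, 13.1%, 16.1% and 11.2% of all tested genes were called lower. With the replicate block 5 fell in Ddx10KD and 3 in Ddx54KD, where 44.0% and 38.9% of all tested genes were called in either direction. Their median log2 difference was -0.30, -0.26, -0.32 and -0.19 in that order. Polr2f fell to 261 ± 11.8, 254 ± 2.03, 242 ± 14.4 and 255 ± 8.26 TPM in the 4 knockdowns, against 314 ± 8.08 TPM in EGFPKD (SD, n = 3), with log2 changes of -0.33, -0.32, -0.41 and -0.32 (edgeR adjusted p = 0.000833, 0.00132, 0.000114 and 0.00129). Polr2e fell by 0.25, 0.27 and 0.40 on the log2 scale in Ddx10KD, Ddx24KD and Ddx27KD, and its difference in Ddx54KD was -0.23 (edgeR adjusted p = 0.0625). Polr2l fell by 0.30, 0.26 and 0.32 in the same 3 knockdowns, and its difference in Ddx54KD was -0.19 (edgeR adjusted p = 0.115). Both also passed in Ddx54KD with the replicate block (edgeR adjusted p = 0.000118 and 0.022).

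Of 6 further promoter and termination factors (Taf1a, Taf1d, Taf12, Tbp, Ttf1 and Ptrf), 2 fell in Ddx10KD, 1 in Ddx24KD, 0 in Ddx27KD and 1 in Ddx54KD, and 0 rose. Of all tested genes 14.5%, 13.1%, 16.1% and 11.2% were called lower in that order. Under the block Ttf1, the termination factor, also rose in Ddx10KD, by 0.16 (edgeR adjusted p = 0.0181), and Tbp, the TATA-binding protein, also fell in Ddx27KD, at -0.14 (adjusted p = 0.0246). Under the block 44.0% and 45.8% of all tested genes were called in these 2 knockdowns in either direction. With 6 genes these counts are no result about the list. Ptrf, which helps to release the transcript at termination, fell by 0.24 in Ddx10KD and 0.26 in Ddx24KD on the log2 scale (edgeR adjusted p = 0.024 and 0.0162). Of 24 regulators of ribosomal RNA gene transcription, 4 rose and 4 fell in Ddx10KD, 4 and 2 in Ddx24KD, 4 and 5 in Ddx27KD, and 2 and 5 in Ddx54KD. These counts are near the 31.0%, 28.1%, 33.4% and 24.3% of all tested genes called in either direction. With the replicate block 5 rose and 8 fell in Ddx10KD, 4 and 4 in Ddx24KD, 5 and 9 in Ddx27KD, and 4 and 10 in Ddx54KD. Under the block 44.0%, 41.2%, 45.8% and 38.9% of all tested genes were called in either direction. Rb1, the retinoblastoma protein, which can restrain Ubtf, rose to 30.0 ± 6.35, 28.3 ± 6.66, 32.8 ± 2.25 and 25.1 ± 6.09 TPM in the 4 knockdowns, against 8.14 ± 0.665 TPM in EGFPKD (SD, n = 3), log2 changes of 1.82, 1.78, 1.99 and 1.60 (edgeR adjusted p = 2.72e-06, 3.87e-06, 8.83e-07 and 1.31e-05). Myc, a transcription factor that can raise the expression of this machinery, fell to 58.1 ± 3.83, 70.2 ± 1.42, 67.5 ± 3.1 and 72.2 ± 4.44 TPM, against 88.7 ± 9.34 TPM in EGFPKD (edgeR adjusted p = 5.63e-06, 0.00194, 0.000333 and 0.00456). Mycn, the family member with the higher level in these libraries (a mean of 296 TPM over the 15), named after its values were seen, had 328 ± 35.8, 332 ± 49.8, 327 ± 36.6 and 259 ± 30.4 TPM in the 4 knockdowns, against 235 ± 30.2 TPM in EGFPKD (SD, n = 3). Mycn rose by 0.42, 0.49 and 0.45 on the log2 scale in Ddx10KD, Ddx24KD and Ddx27KD (edgeR adjusted p = 0.00598, 0.00275 and 0.00343), and its difference in Ddx54KD was 0.12 (adjusted p = 0.435, and 0.00771 with the block). Phf8, a histone demethylase found at ribosomal RNA genes, rose by 0.25, 0.38, 0.43 and 0.27 on the log2 scale (edgeR adjusted p = 0.00415, 0.000157, 3.49e-05 and 0.00293).

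The other nuclear polymerases had calls in both directions too. A list of 8 RNA polymerase II genes held core subunits and Polr2m, an associated protein that was not called in any knockdown. Of these 8, 2 rose in each knockdown, and 4, 2, 4 and 2 fell in Ddx10KD, Ddx24KD, Ddx27KD and Ddx54KD. Under the block 5, 4, 5 and 2 fell. The largest subunit, Polr2a, rose by 0.33, 0.44, 0.56 and 0.47 on the log2 scale (edgeR adjusted p = 0.0108, 0.00195, 0.000214 and 0.00154). The second largest, Polr2b, rose by 0.20, 0.28, 0.29 and 0.22 (edgeR adjusted p = 0.00087, 6.38e-05, 2.56e-05 and 0.000617), whereas Polr1b, its counterpart in RNA polymerase I, fell. Polr2i, a small subunit, fell by 0.24, 0.29, 0.50 and 0.35 (edgeR adjusted p = 0.00822, 0.00305, 2.63e-05 and 0.000913). Of 11 subunits of RNA polymerase III, 1 rose in each of Ddx10KD, Ddx24KD and Ddx27KD and 0 in Ddx54KD, and 3, 3, 2 and 2 fell. Under the block 1, 2, 2 and 1 rose and 3, 3, 2 and 3 fell. Without the block, the counts of these lists of few genes are to be read against 31.0%, 28.1%, 33.4% and 24.3% of all tested genes called. Counts under the block are to be read against 44.0%, 41.2%, 45.8% and 38.9%. Nothing particular to a list follows from these counts. Polr3g, a subunit abundant in pluripotent cells, fell by 0.42, 0.34, 0.44 and 0.32 (edgeR adjusted p = 0.000103, 0.000707, 5.36e-05 and 0.00147). Polr3b, the second-largest subunit of that enzyme, rose by 0.22, 0.19 and 0.21 in Ddx10KD, Ddx24KD and Ddx27KD (edgeR adjusted p = 0.00124, 0.00347 and 0.00137), and with the block it also passed in Ddx54KD, at 0.11 (adjusted p = 0.0256). Of 10 promoter factors of RNA polymerase III, 1, 2, 2 and 1 rose and 1 fell, in Ddx54KD, and with the block 3, 2, 3 and 1 rose and again 1 fell, in Ddx54KD. Gtf3c1, the largest subunit of the promoter factor TFIIIC, rose by 0.60, 0.62, 0.71 and 0.59 (edgeR adjusted p = 2.94e-05, 2.45e-05, 4e-06 and 4.63e-05), more than any RNA polymerase I gene studied here. Its fellow subunit Gtf3c3 rose by 0.20 in Ddx24KD and 0.22 in Ddx27KD (edgeR adjusted p = 0.015 and 0.0067).

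**Figure D5:**
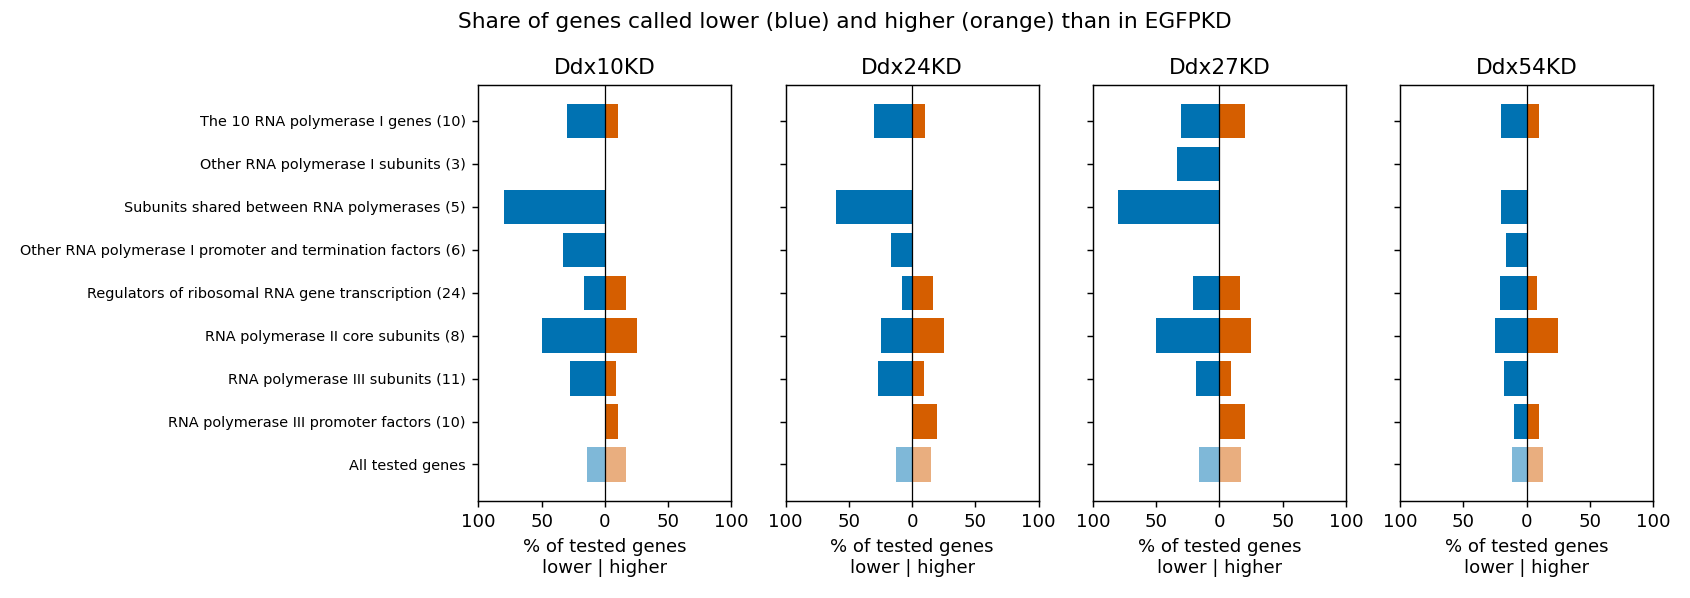
Percent of tested genes (horizontal axes) called lower (bars to the left) and higher (bars to the right) than in EGFPKD, for 8 gene lists and all tested genes (rows, with the number of genes), in each knockdown. The 3 lists of fewer than 8 genes have bars, where any, to the left only. They are the subunits shared between polymerases, the other RNA polymerase I subunits and the other promoter and termination factors. The lists of 8 or more genes have calls on both sides in at least 1 knockdown. The row named RNA polymerase II core subunits also holds Polr2m, an associated protein.

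The genes most like Tcof1, which had the smallest p in the test over the groups, were sought among 8081 tested genes with a mean of at least 10 TPM by the root mean square difference of their centred log2 means over the 5 groups. They were Ndufs7, a subunit of mitochondrial complex I, at 0.0084, Fam188a at 0.009 and Kdm2b, a histone demethylase that is also 1 of the 24 regulators above, at 0.010. The fitted log2 changes of Kdm2b were -0.31, -0.18, -0.24 and -0.22 in Ddx10KD, Ddx24KD, Ddx27KD and Ddx54KD.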

How the data were processed

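Poly(A) RNA was sequenced in 15 libraries. The authors' counting program was RSEM with the mm10 build, according to the submitters' processing notes, and its version, aligner, annotation and strandedness were not given in the sources used here. By the file headers, the deposited values are expected counts (estimated reads, unscaled), TPM (scaled for length and depth) and transcript lengths. The deposited knockdown tables of the authors hold ratios (fold changes) and posterior probabilities, a score per gene, with settings that no source states.

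Expected counts were rounded, filtered with filterByExpr (14335 of 23845 genes kept) and scaled by TMM. All groups entered 1 edgeR quasi-likelihood fit, tested on simulated data, with Benjamini-Hochberg adjustment over all tested genes. SDs are over 3 libraries. Fits used edgeR 4.0.16, with limma 3.58.1 and DESeq2 1.42.0 as alternatives, in R 4.3.3.

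The machinery genes and the other lists were chosen with earlier results of these data known. Named genes are the 10 machinery genes, the 4 targets, up to 3 genes per other list with the smallest p among those called over the 5 groups, and the 3 genes most like the leading one. Others named (Twistnb, Znrd1, Ttf1, Tbp, Mycn, Pou5f1 and the exon-sharing partners) were chosen after their values were seen.

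Once each group's mean was subtracted, all 30 correlations between same-numbered libraries of different groups were above 0.1 (0.106 to 0.335), and different-numbered ones were -0.249 to 0.053. The numbers therefore pair the libraries, a hint from the data and not from the labels, and each test was repeated with the number as a block. Replicates differed by more than counting noise (mean chi-squared per gene 5.81 to 20.7). The labels call the replicates biological and say no more, so p-values measure the spread between these samples.

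Alternatives were RLE and upper-quartile scaling, DESeq2, limma-voom, no filter and a filter of 10 CPM. Further alternatives were the block, the compared groups fitted alone, each library left out and an adjusted p under 0.01. Promoter windows are RefSeq's, and gene overlaps are from GENCODE on the same build as the counts, GRCm38 (mm10).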

Additional observations from a re-analysis of the deposited data

Results flagged for a closer look

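Differences between knockdowns were the results that asked for a closer look, because 4 of the 60 tests of the difference itself passed with the replicate number as a block and none of these passed in edgeR without it. Polr1c, the assembly subunit shared with RNA polymerase III, was higher in Ddx24KD than in Ddx10KD by 0.20, in Ddx27KD than in Ddx10KD by 0.17 and in Ddx54KD than in Ddx10KD by 0.21 on the log2 scale. Tcof1 was higher in Ddx24KD than in Ddx10KD by 0.13. In each case the gene had fallen further in Ddx10KD. Under that fit 5.41%, 5.34% and 10.6% of all tested genes were called in Ddx24KD, Ddx27KD and Ddx54KD against Ddx10KD, and the 4 calls in the 30 tests of these pairs are too few to be set apart from that background. The 3 comparisons share the Ddx10KD libraries.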

How the results depend on the processing

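Alternative values for the 16 called values of the machinery genes numbered 236, all judged at an adjusted p under 0.05. Of these, 205 kept the call and 31 lost it. The stricter threshold of 0.01, given below, is not among them. Of the 24 uncalled values, 346 of 354 stayed uncalled and 8 passed, and no called value changed sign. At an adjusted p under 0.01 the count of genes called was 2673 in Ddx10KD, 2310 in Ddx24KD, 3039 in Ddx27KD and 1860 in Ddx54KD. Of the machinery genes, Polr1c, Rrn3 and Tcof1 remained called in Ddx10KD, 2 genes in Ddx24KD, 2 in Ddx27KD and 1 in Ddx54KD. With the replicate block 5570 genes were called in Ddx54KD, against 3483 without it, 5 machinery genes passed over the 5 groups, against 3, and 4 of the differences between knockdowns passed, against 0, where DESeq2 gave 1. With single libraries left out the genes called numbered 3193 to 4765 in Ddx10KD, 2866 to 4307 in Ddx24KD, 3880 to 5138 in Ddx27KD and 2232 to 3868 in Ddx54KD, the lowest without Ddx54KD replicate 3. The machinery genes called numbered 3 to 4, 2 to 4, 3 to 5 and 2 to 4 in the same order. In Ddx24KD 2 were left without Ddx24KD replicate 3 or any EGFPKD library, and in Ddx27KD 3 were left without Ddx27KD replicate 2 or EGFPKD replicate 3. The cause was not tested, and fits without a library ignored the pairing. The Polr1b call in Ddx24KD was also lost with the 10 CPM filter, with no filter and with upper-quartile scaling (edgeR adjusted p = 0.0509, 0.0503 and 0.0532), and the Polr1c difference in Ddx54KD passed with DESeq2, limma-voom and RLE scaling (adjusted p = 0.0375, 0.0482 and 0.046). Leaving out Ddx24KD replicate 2 in every comparison was added after seeing the data. Leaving out a library kept at least 2 per group. For genes with few counts, such as Taf1b, Taf1c and Polr1e, counting error is part of the spread between replicates.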
